A study of Mus musculus with 4 samples.

Results

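The 42 genes described here encode enzymes that make serine, move its carbon through folate and methionine, and build, salvage or degrade nucleotides. They were chosen by name and matched by gene identifier and symbol, by a rule that sets no threshold on a measured value but was drawn up with earlier results of these data in view, and all 42 were found among the 50600 genes counted. They fall into 8 roles: serine synthesis, folate one-carbon enzymes, the methionine cycle, the purine ring, the AMP and GMP branches, the pyrimidine ring, deoxynucleotides, and salvage with the diphosphate kinases.

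Serine is made from a glycolytic intermediate by a short chain of enzymes, and its side-chain carbon is then carried by folate in mitochondria and in the cytosol. That carbon goes into purine rings and thymidylate and helps to remethylate homocysteine. Lymphocytes that enter growth and division are known to induce many of these enzymes, because copying DNA and making RNA both need new nucleotides.

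The samples were regulatory T cells, the Foxp3-dependent CD4+ lymphocytes that keep other immune cells in check. They were primary cells of C57BL/6NJ mice, with age unknown and sex not collected, in 4 libraries that form 1 group with no other cell type or treatment. The labels point to a CD4+ T cell differentiation protocol, and the alignment names in the file headers carry the words activated and 48h, so both are recorded only as far as that. Every library had its own biosample but 1 donor record covered all of them, and nothing says which animals or cultures the biosamples came from, so p-values reflect only how these biosamples vary, and some of that may be technical.

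Replicates 1 to 4 had 43821767, 58696937, 73819468 and 52005209 counts. Of the 7 regulatory T cell markers examined, a list that includes Cd3e and Cd4, all were expressed. Foxp3 stood at 294, 269.9, 272 and 320.4 TPM in replicates 1 to 4, where TPM is a gene's length-corrected share of its library. The means of the 7 ran from 13.2 ± 1.99 TPM for Ikzf2 to 1488 ± 19.4 TPM for Il2ra. All 12 S phase markers were expressed as well, at a summed 3199 to 3348 TPM. Markers of other cells were near 0 for most lists: 0 of 6 CD8 and NK genes, 0 of 5 erythroid genes and 0 of 5 granulocyte and mast cell genes were expressed, with summed levels of at most 2.20, 1.28 and 0.0543 TPM. In the B cell list 1 of 6 genes was expressed, Cd79b at 3.11 ± 0.466 TPM, and the list summed to at most 4.11 TPM. In the stromal list 1 of 5 was, Pecam1 at 7.99 TPM, with a sum of at most 11.0 TPM. In the myeloid list 2 of 6 were, Cst3 at 102 ± 4.23 TPM and Adgre1 at 1.30 ± 0.328 TPM. The myeloid list summed to 98.5 to 109 TPM, and Lyz2 had 0 counts. The libraries stood apart in sex-linked genes. Xist, which coats the silenced X chromosome of female cells, stood at 172, 145, 0.255 and 0.367 TPM in replicates 1 to 4, and the Y-linked Ddx3y at 0.152, 0.0781, 45.1 and 45.0 TPM. By these genes replicates 1 and 2 differed from replicates 3 and 4, so the 4 libraries are not repeats of 1 animal's RNA.

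All 42 enzymes were expressed, here meaning a TPM of at least 1 in each of the 4 libraries, against 22.9% of all genes counted and 47.2% of protein-coding genes. Their median level was 169 TPM, against 33.7 TPM over the 10274 expressed protein-coding genes. A level of at least 100 TPM in all 4 libraries was reached by 30 of the 42 enzymes (71.4%), and by 19.3% of the expressed protein-coding genes. Together the enzymes held 9755, 9846, 9643 and 10017 TPM in replicates 1 to 4, and 1.07%, 1.08%, 1.05% and 1.08% of the counts. Each enzyme had at least 901 counts in each library. In bulk RNA a smaller share of cells with a transcript and less of it per cell cannot be told apart.

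**Figure D1:**
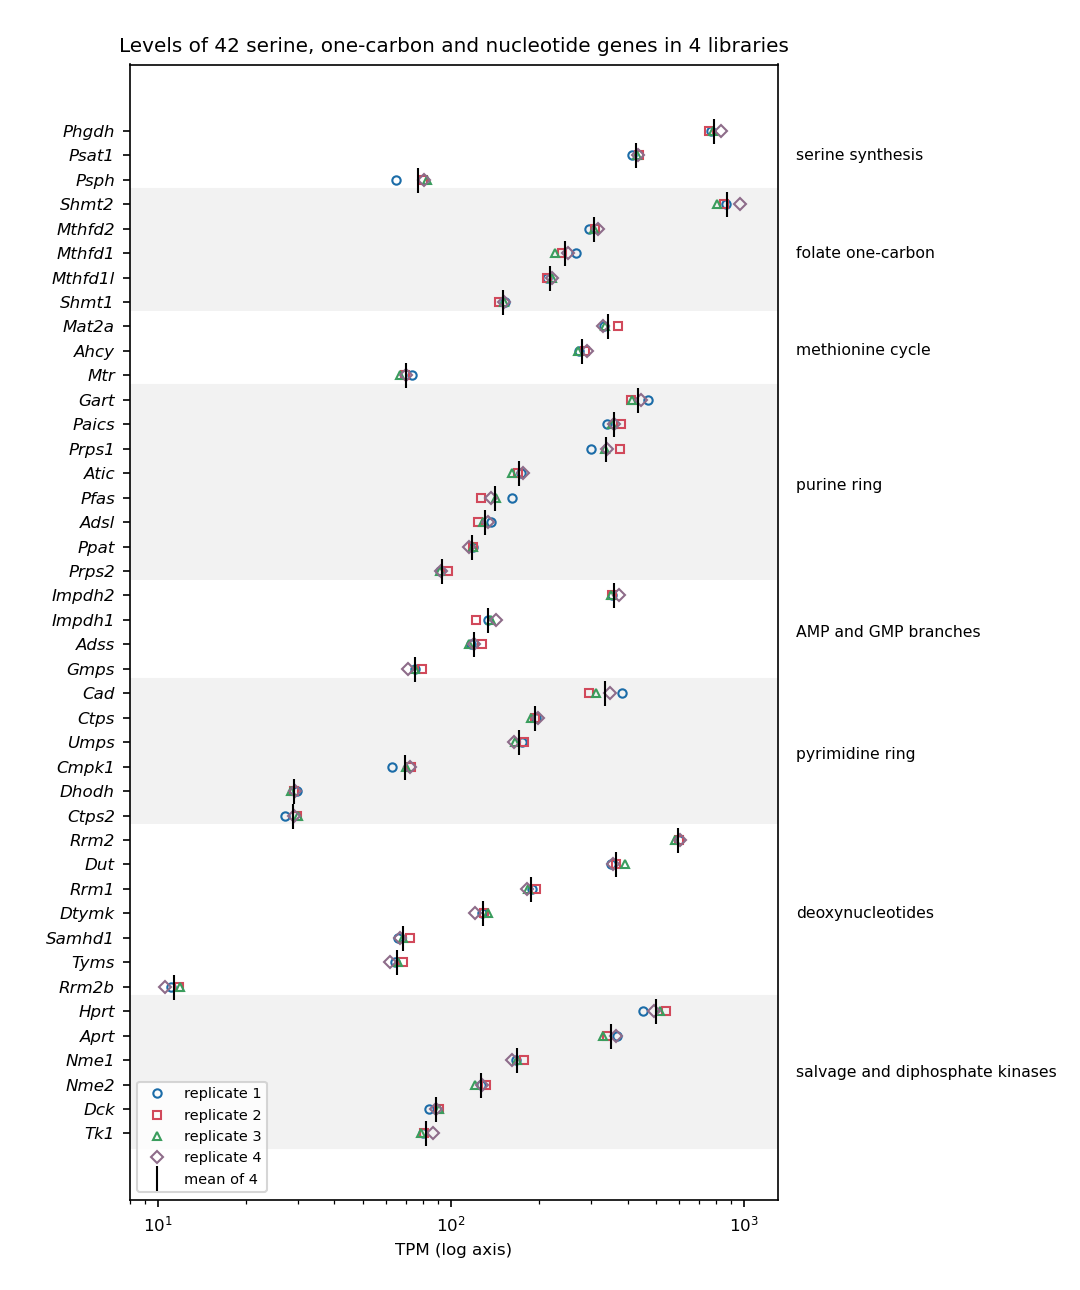
TPM of each of the 42 enzymes in each of 4 libraries on a log axis, grouped by role, with open symbols for the libraries and a bar for their mean. Shmt2 lies farthest right at 873 TPM and Rrm2b farthest left at 11.3 TPM, and the symbols of 1 gene lie close together beside the distance between genes.

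The order of levels ran from Shmt2 at 873 ± 68.5 TPM to Rrm2b at 11.3 ± 0.620 TPM (SD, n = 4), a 77.0-fold span. The top of the order was held by the mitochondrial serine hydroxymethyltransferase Shmt2, the first enzyme of serine synthesis Phgdh, and the small subunit of ribonucleotide reductase Rrm2. Of the 41 pairs of neighbours in this order, 28 overlapped in their ranges over the 4 libraries, and in 23 the order itself differed between libraries. The other 5 overlapping pairs kept their order within each of the 4 libraries: Shmt2 above Phgdh, Nme2 above Adss, Dck above Tk1, Gmps above Mtr, and Samhd1 above Tyms. With the length of 1 principal transcript, Nme2 was instead below Adss, at a mean of 100 against 135 TPM. Dck was then below Tk1, at 74.6 against 203 TPM. The 13 gaps without overlap came just after Phgdh, Rrm2, Psat1, Mthfd2, Ahcy, Mthfd1, Mthfd1l, Rrm1, Nme1, Ppat, Prps2, Tyms and Ctps2. The ranges of Shmt2 and Phgdh overlapped, since Phgdh reached 836 TPM in replicate 4 and Shmt2 was at 806 TPM in replicate 3.

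The serine synthesis enzymes summed to 1294 ± 42.4 TPM (SD, n = 4). Phgdh (chr3:98313170-98339990, mm10, minus strand), which oxidises phosphoglycerate in the first and rate-setting step, stood at 772, 759.6, 784 and 836 TPM in replicates 1 to 4. Psat1, the aminotransferase of the second step, averaged 429 ± 10.8 TPM. Psph (chr5:129765558-129787449, minus strand), the phosphatase of the last step, stood at 64.7, 80.3, 82.8 and 80.7 TPM. Replicate 1 was the low library for Psph while the other 3 lay together, and the 3 genes did not overlap with each other in any library. The first enzyme of this chain was thus the highest and the last the lowest in every library. With the length of 1 principal transcript in place of all exons, Phgdh was at 710.1 ± 29.9 TPM and Psph at 132 ± 14.1 TPM.

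Phgdh has processed copies elsewhere in the genome, and 63.1% of the 50-base words of its principal transcript also occur in another gene, most of them in the pseudogene Gm7901 (chr8:75711600-75713196, minus strand). The counting command in the file headers has no option to keep fragments that match several places, so the Phgdh count can be too low. Gm7901 itself was listed at 22.7, 20.8, 22.4 and 18.2 TPM, far under Phgdh in every library. Over 1597 aligned bases of the coding sequence the 2 genes were 98.75% identical, with 18 differing bases. The stretches below show how little separates them, with coding positions 209 to 298 of Phgdh above the aligned Gm7901 transcript, both 5′ to 3′ from GENCODE M21, and the differing base in capitals.
Phgdh: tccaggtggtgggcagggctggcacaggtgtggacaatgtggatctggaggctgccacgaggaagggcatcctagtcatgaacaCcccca
Gm7901: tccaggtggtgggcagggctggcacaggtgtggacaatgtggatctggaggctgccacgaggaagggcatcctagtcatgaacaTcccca

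The upstream sequence of Phgdh is printed because it is the highest enzyme of serine synthesis. It runs at chr3:98339991-98340219 (GRCm38.p6, the RefSeq name of mm10, minus strand, 5′ to 3′), ends just before the first deposited exon base, and has capitals for its 1 match to CCAAT.
Phgdh upstream: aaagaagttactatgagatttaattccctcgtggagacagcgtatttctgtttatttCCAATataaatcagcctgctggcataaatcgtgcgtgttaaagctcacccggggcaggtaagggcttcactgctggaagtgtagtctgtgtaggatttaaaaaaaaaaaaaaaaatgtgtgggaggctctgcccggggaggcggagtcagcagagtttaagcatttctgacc

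The folate one-carbon enzymes summed to 1793 ± 83.7 TPM (SD, n = 4), of which Shmt2 was the largest share, and overlapped over the libraries with the sum of the purine ring enzymes. Shmt2 (chr10:127517123-127522444, minus strand) moves the carbon of serine onto folate in mitochondria and stood at 867, 851, 806 and 968 TPM in replicates 1 to 4. Its cytosolic counterpart Shmt1 (chr11:60788104-60811718, minus strand) stood at 153, 146, 152 and 152 TPM. No library of Shmt2 came near those of Shmt1, and replicate 4 was the highest for Shmt2. Mthfd2, the mitochondrial dehydrogenase of folate carbon, averaged 307 ± 8.96 TPM. Mthfd1l, which releases formate from mitochondria, stood at 213, 212, 221 and 221 TPM, and Mthfd1, the cytosolic enzyme that takes formate up again, at 267, 239, 227 and 249.8 TPM. Mthfd1l was below Mthfd1 in each library, most so in replicate 1.

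The methionine cycle summed to 693 ± 23.5 TPM. Mat2a (chr6:72432799-72439558, minus strand), which makes the methyl donor S-adenosylmethionine, stood at 333, 371, 336 and 330.1 TPM, with replicate 2 above the others. Mtr (chr13:12186542-12258113, minus strand), the methionine synthase that takes carbon from folate, stood at 73.4, 69.5, 67.1 and 70.1 TPM and did not overlap with Mat2a. Ahcy, which hydrolyses S-adenosylhomocysteine, averaged 280.3 ± 9.35 TPM. For Ahcy 77.0% of the 50-base words occur elsewhere, mainly in Gm4737 (chr16:46152997-46155077, minus strand), an annotated gene listed at 3.77 ± 0.894 TPM that was 99.69% identical over 1296 coding bases. The pair of stretches below is shown for that copy, from coding position 391 to 480 of Ahcy, 5′ to 3′, with the 2 differing bases in capitals.
Ahcy: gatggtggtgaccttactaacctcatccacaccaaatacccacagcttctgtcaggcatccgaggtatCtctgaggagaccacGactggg
Gm4737: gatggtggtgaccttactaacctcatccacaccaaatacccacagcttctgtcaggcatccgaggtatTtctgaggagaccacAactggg

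The purine ring enzymes summed to 1784 ± 26.8 TPM over 8 genes. Gart (chr16:91621186-91646952, minus strand), a protein with several activities in the middle of the pathway, was the highest of them at 468, 412, 414 and 444 TPM. Prps2 (chrX:167346322-167382749, minus strand), a synthetase of the activated ribose that starts the ring, was the lowest at 91.8, 98.0, 91.9 and 92.2 TPM. Its paralogue Prps1 (chrX:140456613-140476140, plus strand) stood at 300.4, 376, 335 and 339 TPM, with replicate 1 low and replicate 2 high. Ppat, the amidotransferase of the committed step, averaged 118 ± 1.93 TPM, the smallest spread of these genes. The later enzymes Paics, Atic, Pfas and Adsl averaged 358 ± 16.7, 170.2 ± 6.85, 142 ± 14.7 and 131 ± 5.93 TPM, so the committed step was below each of these later steps in every library, and below Gart as well. Paics and Ppat lie head to head on chromosome 5 with overlapping starts, and the strand-specific counting keeps them apart. Paics stood 3.04 ± 0.151-fold above Ppat.

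A copy of Prps1, the gene Prps1l3 (chr12:57230412-57239882, plus strand), was listed at 113, 136, 128 and 117 TPM, a level above that of Prps2 in every library. Prps1 and Prps1l3 share 96.96% of 953 aligned bases, and 10.1% of the 50-base words of Prps1 occur in another gene, so most fragments can be told apart by sequence but some cannot. Prps1 stood 2.66, 2.76, 2.61 and 2.90-fold above Prps1l3 in replicates 1 to 4. The start of the coding sequence of Prps1 and the aligned stretch of Prps1l3 show the difference, 5′ to 3′, with the 5 differing bases in capitals.
Prps1: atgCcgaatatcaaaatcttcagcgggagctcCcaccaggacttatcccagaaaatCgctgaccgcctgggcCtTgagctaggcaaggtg
Prps1l3: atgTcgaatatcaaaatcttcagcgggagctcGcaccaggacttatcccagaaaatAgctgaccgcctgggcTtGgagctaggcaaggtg

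The AMP and GMP branches, where the finished purine is turned into adenine and guanine nucleotides, summed to 687 ± 13.4 TPM. Impdh2 (chr9:108560286-108565584, plus strand), the dehydrogenase that commits purines to GMP, was highest at 354, 355, 351 and 374 TPM. Gmps (chr3:63976106-64022579, plus strand), which completes GMP, was lowest at 75.1, 79.3, 75.6 and 71.5 TPM, and Impdh2 stood 4.76 ± 0.323-fold above it, or 7.89 ± 0.535-fold with the length of 1 transcript. Impdh1, the other isoform of the dehydrogenase, stood at 134, 122, 136 and 142 TPM, and Adss, the synthase on the AMP side, averaged 119.9 ± 5.60 TPM. Impdh2 was clear of all 3 in each library.

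Impdh2 has a processed pseudogene, Impdh2-ps (chr8:100030558-100032102, plus strand), that differs from its coding sequence at 4 of 1542 bases. It was listed at 15.9 ± 0.715 TPM, and 73.9% of the 50-base words of Impdh2 occur in it or in other genes, so the Impdh2 count may be low. Coding positions 181 to 270 of Impdh2 are set beside the copy to show a single differing base in capitals, 5′ to 3′.
Impdh2: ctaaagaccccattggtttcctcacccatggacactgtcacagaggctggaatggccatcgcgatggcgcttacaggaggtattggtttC
Impdh2-ps: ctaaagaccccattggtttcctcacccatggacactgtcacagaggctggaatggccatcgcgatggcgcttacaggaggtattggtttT

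The pyrimidine ring enzymes summed to 826 ± 37.7 TPM. Cad (chr5:31054780-31078479, plus strand), the protein that carries out the opening steps, stood at 383, 295, 311 and 349 TPM, the largest relative spread of the 42 enzymes with an SD of 11.8% of the mean. Dhodh, the mitochondrial dehydrogenase of the next step, averaged 29.2 ± 0.545 TPM, and Umps, which completes UMP, averaged 170.1 ± 6.85 TPM. The mitochondrial step was thus the lowest on the way to UMP, and Dhodh stood at 62.2 ± 1.28 TPM with the length of 1 transcript. Ctps, which makes CTP, stood at 194, 194, 187 and 197 TPM, while its X-linked paralogue Ctps2 (chrX:162901238-163032508, plus strand) stood at 27.1, 29.7, 30.1 and 29.0 TPM. Ctps2 and Dhodh were both low and overlapped, with Ctps2 the higher of them in replicates 2 and 3. With the length of 1 transcript the mean of Ctps2 was 28.0 ± 1.23 TPM, below that of Dhodh. Cmpk1, the kinase of UMP and CMP, averaged 69.6 ± 4.82 TPM.

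The deoxynucleotide enzymes summed to 1423 ± 20.3 TPM. Rrm2 (chr12:24708241-24714146, plus strand), the small subunit of ribonucleotide reductase that is made in S phase, stood at 601, 599, 583 and 604 TPM in replicates 1 to 4. Rrm2b (chr15:37923952-37961318, minus strand), the alternative small subunit known as a p53 target, stood at 11.1, 11.8, 11.9 and 10.6 TPM and was the lowest of the 42 genes. All libraries of Rrm2 lay close together, and the gap to Rrm2b was at least 48.9-fold in each. Rrm1, the large subunit, averaged 187 ± 6.26 TPM, so Rrm2 stood 3.19 ± 0.107-fold above it. That ratio was 1.46 ± 0.0490 with the length of 1 principal transcript, because the summed exons of Rrm1 are 2.76 times as long as that transcript.

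Dut, which clears dUTP, averaged 366 ± 18.3 TPM, and Tyms, which makes thymidylate with carbon from folate, averaged 65.2 ± 2.63 TPM. Dtymk, the kinase of thymidylate, averaged 128 ± 5.49 TPM, and Samhd1, which degrades deoxynucleotides, averaged 68.3 ± 2.79 TPM. Dut stood 5.63 ± 0.291-fold above Tyms, the step it feeds, or 3.61 ± 0.187-fold with the length of 1 transcript. Of the Tyms 50-base words 11.1% occur in another gene.

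Upstream sequences of Rrm2 and Dtymk are printed as the highest deoxynucleotide gene and as a gene whose window holds both an E-box and a CCAAT match. They lie at chr12:24708004-24708240 (plus strand) and chr1:93801935-93802184 (minus strand) of GRCm38.p6, 5′ to 3′ from RefSeq, with matches to CACGTG and to CCAAT or its reverse complement in capitals.
Rrm2 upstream: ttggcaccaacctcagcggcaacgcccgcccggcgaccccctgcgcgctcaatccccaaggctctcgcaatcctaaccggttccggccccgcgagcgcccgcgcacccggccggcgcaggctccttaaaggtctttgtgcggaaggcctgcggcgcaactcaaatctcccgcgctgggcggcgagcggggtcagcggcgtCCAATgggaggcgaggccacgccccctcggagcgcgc
Dtymk upstream: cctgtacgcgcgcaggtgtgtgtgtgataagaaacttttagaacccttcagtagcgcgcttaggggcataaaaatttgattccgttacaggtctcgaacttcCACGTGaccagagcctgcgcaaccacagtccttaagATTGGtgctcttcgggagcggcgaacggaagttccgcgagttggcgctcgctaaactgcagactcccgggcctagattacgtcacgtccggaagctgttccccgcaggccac

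Over the 250 bases before the start, 39 of the 42 genes had a window in the RefSeq table, which holds 27025 genes with one, and motifs were searched on both strands. The E-box CACGTG, which Myc and related factors bind, occurred in 6 of the 39 (15.4%), against 6.86% of all genes with a window. The 6 were Atic, Dtymk, Impdh2, Nme1, Paics and Tyms. The E2F motif TTTNNCGC occurred in 4 (10.3%), against 4.94%, namely Nme1, Ppat, Prps1 and Psph. CCAAT occurred in 17 (43.6%), against 37.5%, and the ATF4 element TGATGNAA in 1 (2.56%), Prps1, against 3.91%. The genes with a window were not limited to expressed genes and not matched to the enzymes in base composition. These matches are letters in a window and were not tested as binding sites. Among the regulators named for these motifs, Atf4 stood at 1090.0 ± 38.6 TPM and Myc at 543 ± 23.5 TPM. E2f1, E2f2 and E2f3, added after their values were seen, stood lower, at 47.7 ± 0.770, 74.1 ± 1.79 and 60.7 ± 1.70 TPM.

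Salvage enzymes and diphosphate kinases summed to 1315 ± 34.5 TPM. Hprt (chrX:52988137-53021659, plus strand), which recovers hypoxanthine and guanine, was highest at 451, 539, 515 and 492 TPM, with replicate 1 low. Tk1 (chr11:117815526-117826092, minus strand), the thymidine kinase of dividing cells, was lowest at 80.4, 80.6, 79.2 and 87.0 TPM. Aprt, which recovers adenine, averaged 350.4 ± 18.9 TPM and Dck, which phosphorylates deoxycytidine, 88.5 ± 3.12 TPM. Both purine salvage enzymes were thus above both deoxynucleoside kinases in every library. With the length of 1 transcript the ends of this role changed, with Aprt above Hprt and Dck, not Tk1, the lowest, since Tk1 then stood at 203 ± 8.68 TPM. The diphosphate kinases Nme1 and Nme2, tandem genes on chromosome 11, stood at 166, 178, 168 and 161 TPM and at 126, 131, 121 and 127 TPM. Of the exon bases of Nme2, 48.9% are shared on the same strand with the readthrough gene Gm20390, and 12.5% of those of Nme1, and Gm20390 had 2, 0, 1 and 0 counts. Fragments within shared exons are not assigned to either gene under the counting options listed in the headers, so the level of Nme2, of whose 50-base words 25.9% also occur elsewhere, is uncertain.

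Of the 4 X-linked enzymes, Prps1, Prps2, Hprt and Ctps2, none separated the Xist-high libraries, replicates 1 and 2, from replicates 3 and 4. Their values, given above, overlapped between these pairs of libraries for each gene.

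The RNA levels of paired enzymes were compared by the ratio of TPM within a library, over 7 pairs. How the enzymes of a pair share the work was not measured. Rrm2 exceeded Rrm2b 54.2, 50.9, 48.9 and 57.0-fold in replicates 1 to 4. Shmt2 exceeded Shmt1 5.67, 5.83, 5.31 and 6.38-fold, and Ctps exceeded Ctps2 7.17, 6.51, 6.23 and 6.79-fold. Those 3 pairs were the most uneven, and each was uneven in every library. Prps1 exceeded Prps2 3.27, 3.84, 3.64 and 3.68-fold, and Impdh2 exceeded Impdh1 2.65, 2.91, 2.57 and 2.63-fold. Nme1 exceeded Nme2 only 1.32, 1.36, 1.39 and 1.26-fold, a pair whose shared exons are described above. Counts not divided by length gave ratios of 3.80 ± 0.156 for Nme1 over Nme2, 22.7 ± 1.54 for Rrm2 over Rrm2b and 1.86 ± 0.123 for Prps1 over Prps2, with the same direction for these pairs. The exception in direction was Mthfd1l, at 0.798, 0.890, 0.974 and 0.883 times the level of Mthfd1. Its mean log2 ratio was -0.18, against 5.72 for Rrm2 over Rrm2b and 2.53 for Shmt2 over Shmt1. In each of the 7 pairs the 4 libraries lay on the same side of equal levels, and an exact permutation test that flips signs, two-sided over 4 libraries, gave p = 0.13 for each pair, also after Benjamini-Hochberg adjustment over the 7 pairs. That is the smallest p its 16 sign patterns allow, so the test cannot pass 0.05 with 4 libraries.

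**Figure D2:**
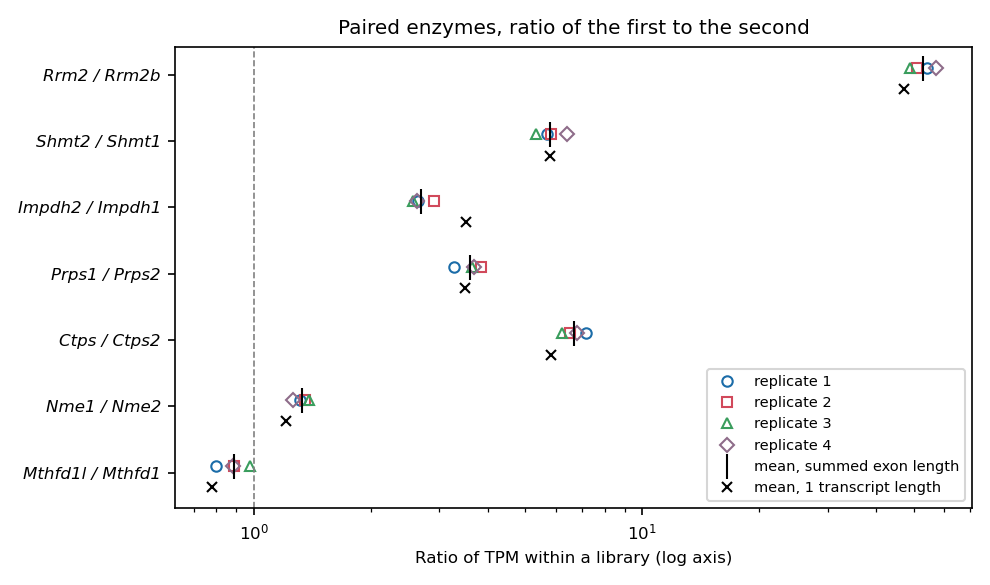
Ratio of TPM of the first enzyme to the second within each library for 7 pairs on a log axis, with open symbols for 4 libraries, a bar for their mean and a cross for the mean with the length of 1 transcript; the dashed line marks equal levels. Rrm2 over Rrm2b lies farthest right at a mean of 52.7, Mthfd1l over Mthfd1 is the pair left of the line at 0.886, and no cross lies on the other side of the line from its bar.

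The choice of gene length moved some levels more than the spread between libraries. Deposited lengths sum the exons of all isoforms. They were 1.29 times the length of 1 principal coding transcript in the median enzyme, against 1.28 in expressed protein-coding genes. The transcript length took only bases within the deposited exons, 4464 of 8294 for Mtr, and the counts were not limited to that transcript. For 7 enzymes the deposited lengths were more than 2 times as long: Tk1 at 3.61 times, Dhodh at 3.10, Atic at 2.81, Rrm1 at 2.76, Dtymk at 2.62, Psph at 2.50 and Samhd1 at 2.33. With the transcript length Rrm1 stood at 354 ± 11.9 TPM and Atic at 328 ± 13.6 TPM, against 187 and 170.2 TPM with the summed exons. Rank in the order of 42 changed by at least 5 places for 17 enzymes, and by at least 10 for Rrm1, in place 8 with the transcript and 19 with all exons, and for Tk1, in place 20 with the transcript and 33 with all exons. Shmt2, Phgdh and Rrm2 kept the first 3 places and Rrm2b and Ctps2 the last.

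**Figure D3:**
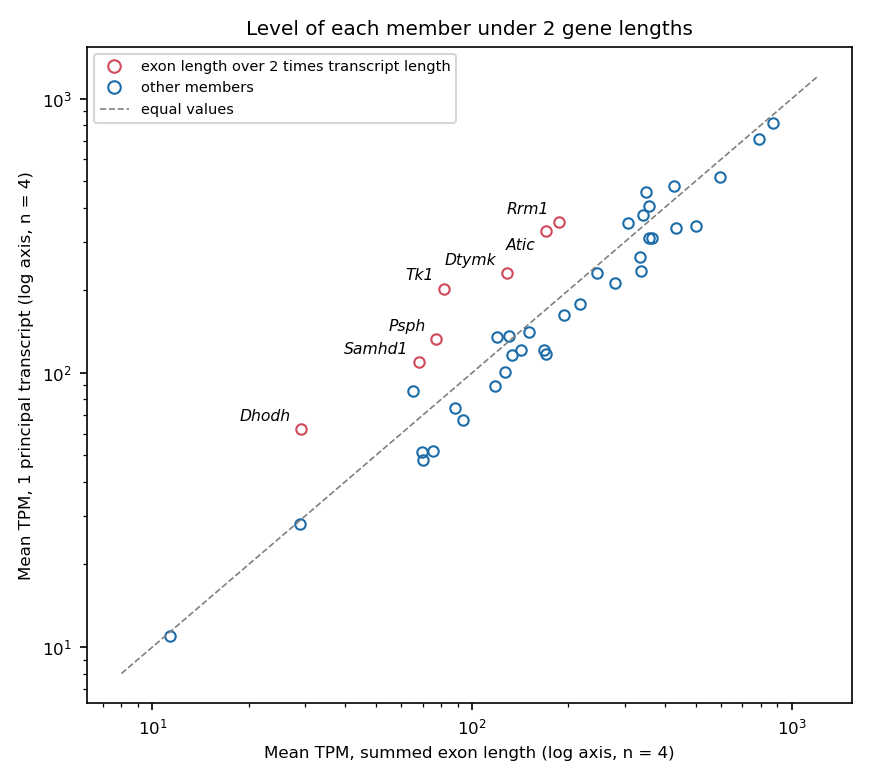
Mean TPM of each enzyme computed with the length of 1 principal transcript (vertical axis) against mean TPM with the summed exon length (horizontal axis), both on log axes with n = 4 libraries. The 7 named enzymes, whose summed exons are more than 2 times the transcript, lie above the dashed line of equal values, Tk1 at 203 against 81.8 TPM and Rrm1 at 354 against 187 TPM.

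Spread between the 4 libraries was small for these enzymes. The SD was 4.25% of the mean in the median enzyme, against 5.97% over expressed protein-coding genes and 5.23% over the 7743 protein-coding genes within the enzymes' range of TPM. It was under 5% for 28 of the 42 enzymes (66.7%), against 46.9% of the protein-coding genes in that range. The steadiest named above was Rrm2 with 1.58%, and the most variable were Cad with 11.8%, Psph with 10.8%, Pfas with 10.4%, Prps1 with 9.13% and Shmt2 with 7.85%. The gene-wise biological coefficient of variation from edgeR had a median of 0.0603 over the enzymes and 0.0734 over the 12917 genes tested. The list was described by these medians only, with no test of the list. Apart from that range of TPM, no set of genes was matched to the enzymes in level. The enzymes' median was 169 TPM, against 33.7 TPM over expressed protein-coding genes.

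Each library was compared with the other 3 by edgeR's quasi-likelihood test and Benjamini-Hochberg adjustment over all 12917 genes tested, which compares libraries and not conditions. None of the 42 enzymes passed an adjusted p of 0.05 in any library, where 0.0697% of all genes tested passed in replicate 1, 0.0232% in replicate 3, and 0.00% in both replicate 2 and replicate 4. DESeq2 also called 0 of the enzymes in each library, among the 28, 40, 42 and 42 enzymes to which it gave an adjusted p in replicates 1 to 4. At an unadjusted p under 0.05 there were 6 enzymes in replicate 1 (14.3%, against 9.31% of genes tested), 5 in replicate 2 (11.9%, against 6.78%), 0 in replicate 3 (against 2.31%) and 1 in replicate 4 (2.38%, against 2.49%).

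The named deviations were modest in size. In replicate 1 Psph had 81.3 CPM, against 102.7 CPM in the other 3, a log2 difference of -0.34 (SE 0.08, edgeR adjusted p = 0.0967), the smallest adjusted p of any enzyme. Cad stood at a log2 difference of 0.26 (SE 0.08) in the same library and Pfas at 0.25 (SE 0.09), with edgeR adjusted p-values of 0.22 and 0.32. Prps1, Cmpk1 and Hprt were the others at an unadjusted p under 0.05, at log2 differences of -0.23, -0.21 and -0.20. In replicate 2 the differences of Cad and Pfas were of the other sign, -0.23 and -0.22, and that of Prps1 was 0.21, beside Impdh1 at -0.17 and Adss at 0.13. Shmt2 was the single such gene in replicate 4, at 0.20 with an edgeR adjusted p of 1.0. These comparisons share libraries, so they are not independent of each other. Without replicate 4, Cad passed in replicate 1 with a higher level, and Hprt, Prps1 and Psph with a lower one. Without replicate 2, and with no expression filter, Psph was the enzyme that passed there. In each of these settings more of all genes tested passed as well, as given in the last section. Psph therefore passed or missed the threshold by which library or filter was used, with the same direction each time.

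The median size of the log2 difference was 0.0544, 0.0703, 0.0448 and 0.0582 over the enzymes in replicates 1 to 4, against 0.109, 0.105, 0.0827 and 0.0828 over all genes tested. The genes tested were not matched to the enzymes in level. The deviations were set beside base composition. Across the 42 enzymes the log2 difference correlated with transcript GC content at Pearson's r of 0.388, -0.649, -0.353 and 0.590 for replicates 1 to 4, with Spearman's rho of 0.400, -0.684, -0.358 and 0.602. Over 11357 tested genes r was 0.0526, -0.207, -0.0152 and 0.127, of the same signs and smaller. Spearman's rho over those genes was 0.159, -0.331, -0.0773 and 0.252, larger in size than r but still smaller than over the enzymes. With the log2 of coding length r over the enzymes was 0.607, -0.517, -0.388 and 0.107, against 0.179, -0.179, -0.0968 and 0.0892 over the tested genes, so in replicate 4 the enzymes were near all genes. These are correlations across genes of the same libraries, and genes are not independent replicates. The part of base composition and length in the deviations of Cad, Pfas and Prps1 was not tested.

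**Figure D4:**
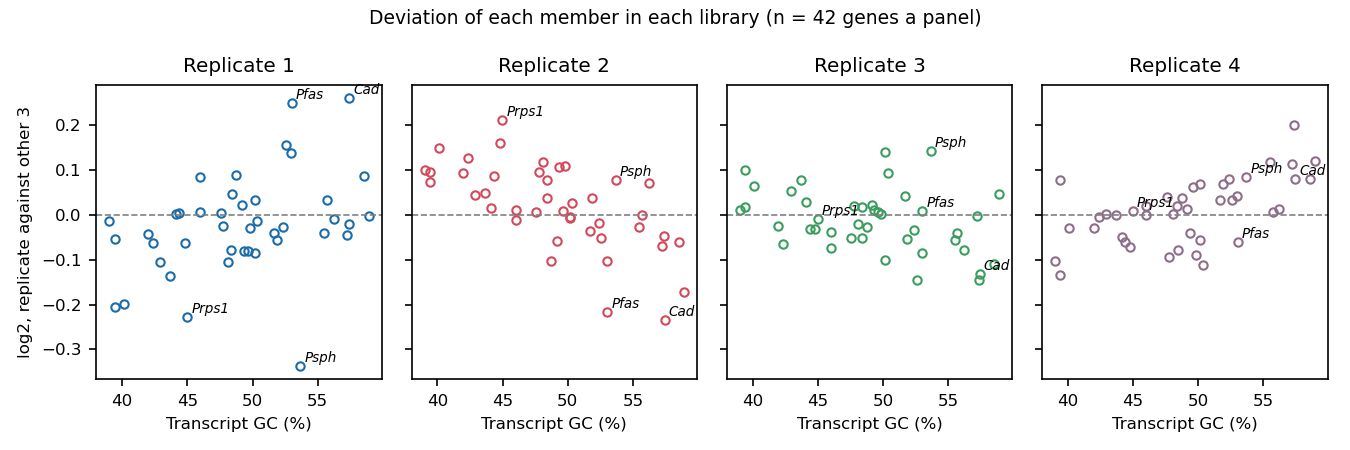
Log2 difference of each enzyme between 1 library and the other 3 (vertical axis) against the GC content of its transcript in percent (horizontal axis), 1 panel for each of 4 libraries and 42 points a panel. The cloud falls to the right in replicate 2 (r = -0.649) and climbs to the right in replicate 4 (r = 0.590), with Psph lowest in replicate 1 at -0.34.

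Around the 42 enzymes, 88 other genes of the same pathways were listed by role, of which 87 were found by symbol and 61 were expressed. Their median was 18.7 TPM, against 169 TPM for the enzymes, and 11 had 0 counts in all 4 libraries. Among 25 other folate and glycine cleavage genes 18 were expressed, led by the mitochondrial serine carrier Sfxn1 at 247 ± 2.49 TPM, the folate carrier Slc19a1 at 143 ± 6.45 TPM and Dld at 129.7 ± 6.02 TPM. Gldc, the decarboxylase of glycine cleavage, stood at 0.175 ± 0.0962 TPM, and Folr1, Folr2, Sds and Sdsl had 0 counts, which allows at most 0.103, 0.154, 0.140 and 0.159 TPM at 3 counts. The carriers for serine entry into mitochondria and folate uptake were thus expressed, while Gldc stayed under 1 TPM in every library. The paralogue of Mthfd2, Mthfd2l, averaged 1.32 ± 0.189 TPM.

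Of 10 other methionine and transsulfuration genes 5 were expressed. Mtap, which recycles methylthioadenosine, led with 117 ± 1.80 TPM, followed by the Ahcy-like gene Ahcyl1 with 79.3 ± 1.68 TPM and Cth, the last enzyme of cysteine synthesis from homocysteine, with 49.5 ± 6.79 TPM. Gnmt, a methyltransferase of liver, was at 0.597 ± 0.770 TPM, and Mat1a, the liver form of Mat2a, had 0 counts, which allows at most 0.0740 TPM. Mat2a was thus the detected form of this enzyme at this depth.

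Of 23 other purine genes found, 18 were expressed, among them the deaminase Ampd2 at 126 ± 9.45 TPM and the cleansing enzyme Itpa at 119.7 ± 8.44 TPM. Adssl1, the muscle form of Adss, averaged 2.24 ± 0.451 TPM, and Uox, the urate oxidase, was the lowest detected at 0.0116 ± 0.0232 TPM. Of 15 other pyrimidine genes 8 were expressed, with the triphosphatase Dctpp1 at 357 ± 14.7 TPM, Uck2 at 229.6 ± 2.17 TPM and Uck1 at 49.5 ± 1.59 TPM, both kinases of uridine and cytidine. Upp2, a uridine phosphorylase, was the lowest detected at 0.0681 ± 0.0357 TPM, and the cytidine deaminase Cda and the breakdown genes Dpyd and Dpys had 0 counts. Those 3 were thus not detectable at this depth.

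Of 14 other kinases, nucleotidases and carriers 12 were expressed, led by the nucleotidase Nt5c at 277 ± 5.33 TPM, the nucleoside carrier Slc29a1 at 232 ± 12.3 TPM and Nt5c3b at 58.2 ± 2.09 TPM. Nme5, a relative of Nme1 and Nme2, was the lowest at 0.131 ± 0.118 TPM. The mitochondrial kinases Tk2 and Dguok averaged 13.6 ± 0.740 and 8.15 ± 0.481 TPM, below their cytosolic counterparts Tk1 and Dck in every library.

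**Figure D5:**
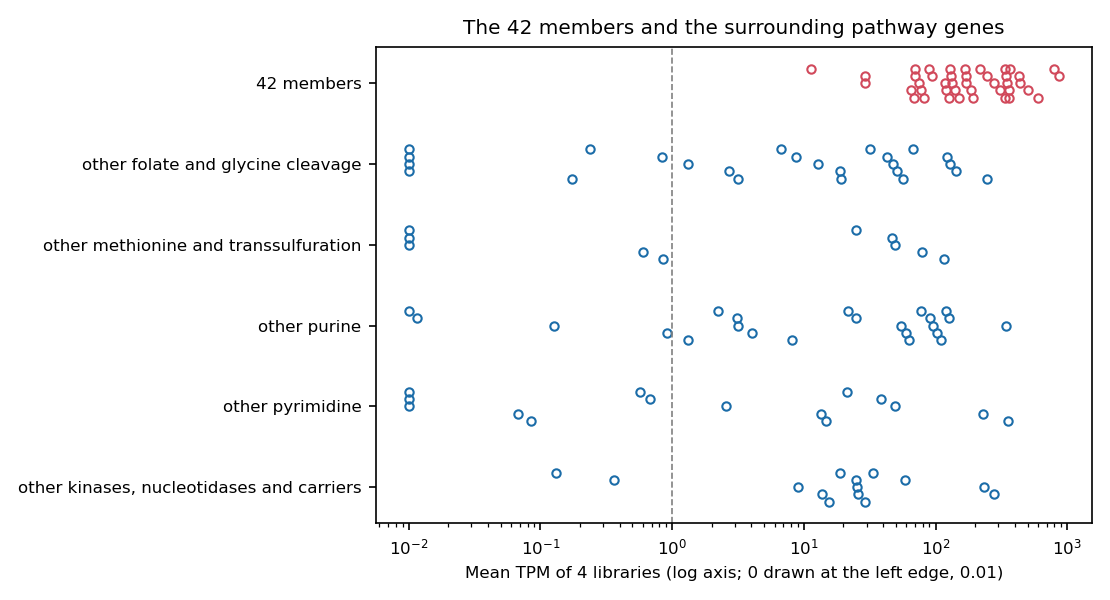
Mean TPM over 4 libraries of the 42 enzymes (top) and of the other pathway genes in 5 lists on a log axis, 1 circle a gene, with genes at 0 drawn at the left edge and a dashed line at a TPM of 1. All 42 enzymes lie to the right of the line, the lowest at 11.3 TPM, while 61 of the 87 other genes were expressed.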

How the data were processed

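RNA of 4 regulatory T cell libraries was measured by paired-end sequencing. The deposited values are whole-number counts of fragments per gene, made with featureCounts 1.4.6-p4 on mm10 alignments with GENCODE M13 exons, reverse-stranded and with both ends aligned, per the file headers. The sources used here name no aligner version. The labels name the assay total RNA sequencing, whereas the library protocol they link is named for polyadenylated RNA. The deposited gene length, per the file headers, is the summed exon length. Replicate numbers are the biological replicate numbers in the labels.

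TPM was computed here from counts and that length. Symbols came from GENCODE M21. Levels are the mean ± SD of 4 libraries, and a value at 0 counts allows up to 3 counts, which covers counting error only. Each library was compared with the other 3 in edgeR 4.0.16 (R 4.3.3) with filterByExpr for 1 group, TMM scaling and the quasi-likelihood test, adjusted by Benjamini-Hochberg at 0.05. DESeq2 1.42.0 was an alternative. The single library has no replicate of its own and takes the spread of the others. No pair of libraries agreed within sampling noise, since chi-square per degree of freedom was 11.1 to 24.4 over 14052 genes.

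The enzymes and lists were chosen with earlier results of these data known. Ratios of paired enzymes were also taken from counts not divided by length. Values in every library were given for the highest and lowest enzyme of each role, both members of each pair, and any enzyme called in a replicate or under 1 TPM. Of each other list the 3 highest and the lowest detected gene were named, with the partners of an enzyme, except for some genes that are not reported here. Copies were found as 50-base words of 1 principal transcript per enzyme that occur in a gene elsewhere in the genome. Exons outside that transcript were not searched.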

Additional observations from a re-analysis of the deposited data

Results flagged for a closer look

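Among the 42 enzymes and 7 ratios, 3 values had 1 library far from the other 3, by the gap to its nearest neighbour over the whole range, where chance gives about 1 in 20. They are 7.14% of the enzymes, against 4.98% of expressed protein-coding genes. Psph, the last enzyme of serine synthesis, stood at 64.7 TPM in replicate 1, with a gap of 0.863 of its range, and the other libraries lay at 80.3, 82.8 and 80.7 TPM. Mat2a, which makes S-adenosylmethionine, stood at 371 TPM in replicate 2, with a gap of 0.860 of its range, and the others lay at 333, 336 and 330.1 TPM. Prps2, which makes activated ribose, stood at 98.0 TPM in replicate 2, with a gap of 0.938 of its range, and the others lay between 91.8 and 92.2 TPM.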

How the results depend on the processing

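No paired analysis was possible because all 4 libraries form 1 group. Of 98 alternative values 92 counted as unchanged, and none reversed. That meant the same direction for ratios, the same side of the threshold for enzymes called, and a value within the spread for the medians. Counts of expressed genes and of neighbour pairs had only to stay within a set fold of the main count. So 53 other pathway genes expressed at a TPM of 5, against 61, counted as unchanged. The median level of the enzymes, 169 TPM, was 178 TPM over protein-coding genes alone and 49.3 as FPKM, and lay between 166 and 170.1 TPM when 1 library was left out. The median spread of 4.25% lay between 3.63% without replicate 2 and 4.66% without replicate 3. Enzymes called in replicate 1 numbered 0, but 1, Psph, with no expression filter, and 0 to 4 when 1 other library was left out: 1 without replicate 2 (Psph), 0 without replicate 3 and 4 without replicate 4 (Cad, Hprt, Prps1 and Psph). Genes called in replicate 1 against the other 3 numbered 9, but 105 with no filter, 26 with DESeq2, and 112, 23 and 341 without replicates 2, 3 and 4. In replicate 2 they numbered 0, but 60 with no filter, 23 with DESeq2, and 52, 3 and 9 without replicates 1, 3 and 4. In replicate 3 they numbered 3, but 35 with no filter, 5 with DESeq2, and 16, 17 and 21 without replicates 1, 2 and 4. In replicate 4 they numbered 0, but 16 with no filter, 0 with DESeq2, and 2, 2 and 9 without replicates 1, 2 and 3. The cause was not tested. These counts have unlike totals: DESeq2 gave an adjusted p to 1529, 5373, 22031 and 22031 genes in replicates 1 to 4. The edgeR test took in 22031 genes with no filter, and 12924 to 13224 with 1 library left out. Transcript-length and within-library order alternatives were chosen after seeing the data. The lowest enzyme count in a library was 901. Copies limit Phgdh, Ahcy and Impdh2, shared exons Nme2.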
